A study of Mus musculus with 3 samples.

Results

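Hybrid tumour cells carrying vimentin and keratin 14 together numbered 289 of the 7620 cells in this single-cell RNA sequencing series of mouse mammary tumour organoids. Members were selected on their measured Vim, Krt14, Epcam and contractile gene levels. A cell counted as hybrid when it came from a collagen or Matrigel culture, held at least 5000 unique molecular identifiers (UMIs, each counting 1 captured transcript) and had at least 1 UMI of Epcam, which encodes an epithelial surface protein. It also needed at least 5 UMIs of Vim and at least 5 of Krt14 per 10000 UMIs of the cell, and fewer than 5 per 10000 for the smooth muscle genes Acta2, Tagln and Cnn1 together. Of 7307 collagen or Matrigel cells, 6618 had enough UMIs, 6313 of these had Epcam and 6097 passed the limit on contractile genes. The comparison class, called Vim-low Krt14 cells below, passed the same filters with Krt14 of at least 5 and Vim under 1 per 10000, and held 2360 cells.

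The tumours came from FVB mice with the C3(1)-Tag transgene, in which a C3(1) promoter drives the SV40 T antigen, taken at an age of 25 to 30 weeks with tumours of 20 mm. Tumour pieces from up to 4 mice were grown with 2.5 nM FGF2 either as organoids in collagen I, later released with 2 mg/ml collagenase, or as cell clusters in Matrigel, a basement membrane gel, released with 10 mM EDTA. Cells were harvested 12 h after plating (day 0), at day 3 and at day 5, tagged by mouse and culture with MULTI-seq lipid barcodes, and pooled into 1 droplet library a day. All groups carried the transgene and received FGF2, so no normal or untreated mammary cells stand beside the hybrid cells. The earliest day is written as 1 in the deposited annotation of cells and was taken here as day 0 by inference from the other days.

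Vimentin is an intermediate filament protein of mesenchymal cells, and keratin 14 is the intermediate filament protein of basal epithelial cells. In epithelial-mesenchymal transition the transcription factors Snai1, Zeb1 and Zeb2 repress genes of cell junctions and polarity, and genes of the extracellular matrix are turned on. Cells that hold epithelial and mesenchymal genes at once are described as a partial or hybrid state, and in mammary tumour organoids keratin 14 is known as a marker of cells that lead collective invasion.

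The day 0, day 3 and day 5 pools held 2961, 3463 and 1196 cells with median depths of 16177, 38122 and 55453.5 UMIs, and each day was also its own sequencing batch, which leaves day and batch inseparable. Between pools, 7 cell barcodes were shared by days 0 and 3 (1 of them a hybrid cell) and 4 by days 3 and 5. A doublet caller marked 1 cell in each pool, at most 0.084% of cells, and is taken as not having worked, so how many hybrid cells are doublets is not known. Counts of called genes are therefore also given below without the 10% of cells with the highest doublet scores.

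Values that chose the members are given as a description. Hybrid cells had 5.10 to 58.6 Vim UMIs per 10000 (median 11) and 5.02 to 226 Krt14 UMIs per 10000 (median 10.5), and the median Krt14 level of Vim-low Krt14 cells was 13.8. Of cells with enough Krt14, the lowest Vim level inside the threshold was 5.10 and the highest outside it 4.98; 25 hybrid cells lay between 5 and 6, and 48 cells between 4 and 5. On the Krt14 side the edges were 5.02 and 4.98, with 36 and 49 cells in the same ranges. Both thresholds therefore cut through a continuous range of cells and not between separate clouds. Among the 6097 filtered cells, Vim of at least 5 per 10000 was found in 9.53% of the 3033 cells with Krt14 of at least 5, in 22% of the 1770 cells with Krt14 from 1 to 5, and in 33.0% of the 1294 cells with Krt14 under 1.

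**Figure D1:**
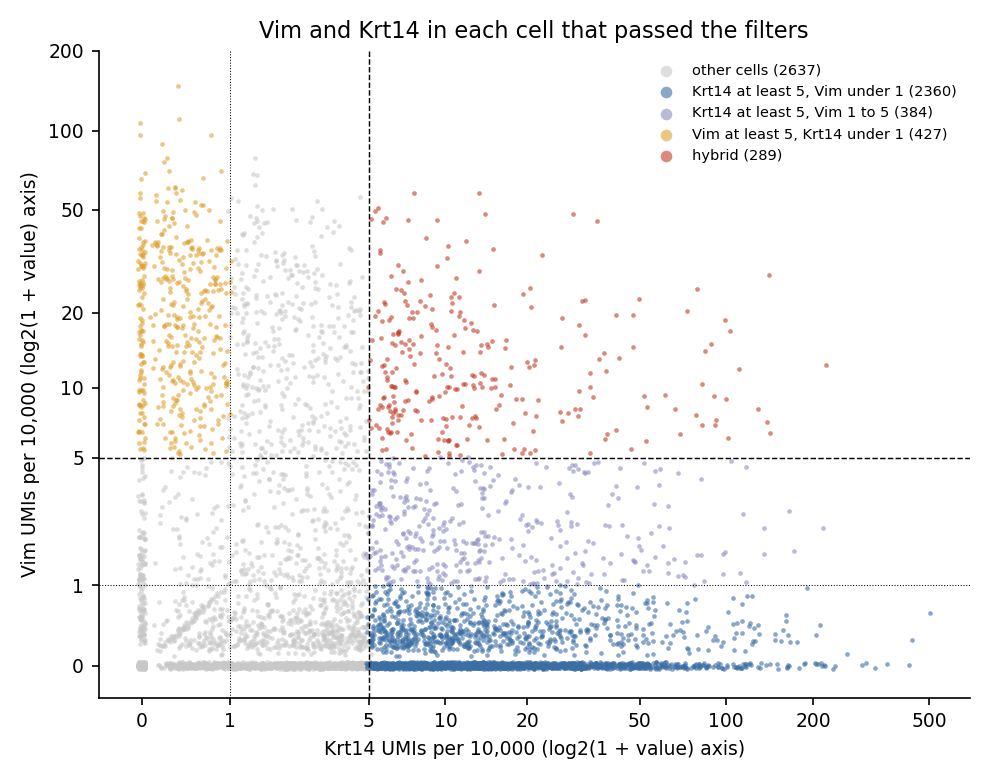
Vim (y axis) against Krt14 (x axis) in the 6097 filtered cells, in UMIs per 10000 on a log2(1 + value) scale, with points moved slightly at random to separate equal values and colours for the classes. The 289 hybrid cells sit beside 384 cells with intermediate Vim, 2360 Vim-low Krt14 cells and 427 Vim-high Krt14-low cells, with no gap at the thresholds.

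E-cadherin transcripts, which the rule did not use, were still found in hybrid cells. At least 1 UMI of Cdh1, which encodes E-cadherin, was seen in 173 of 289 hybrid cells (59.9%). Free RNA sets a background for such shares: Cdh1 was seen in 9.38% of 192 macrophage-like cells, whose median depth was 15108 UMIs, while hybrid cells had a median of 44301 and Vim-low Krt14 cells of 31630. With every cell thinned to 5000 UMIs, Cdh1 was seen in 17.6% of hybrid cells, 34.2% of Vim-low Krt14 cells and 5.73% of macrophage-like cells. The classes were not matched by mouse, gel or day for these shares.

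Hybrid cells were found in every mouse and on every day, and 251 of them came from collagen against 38 from Matrigel. On day 3 the hybrid share of filtered cells in collagen was 12.8% in mouse 1 (50 of 390 cells; exact 95% binomial interval 9.67 to 16.6), 3.72% in mouse 2 (38 of 1022; 2.64 to 5.07), 2.25% in mouse 3 (17 of 757; 1.31 to 3.57) and 16.1% in mouse 4 (18 of 112; 9.81 to 24.2). In Matrigel on the same day it was 0 of 45 cells in mouse 1, which allows a share of up to 6.67% by 3 counts of the total (exact upper bound 7.87%), 0.694% in mouse 2 (1 of 144; 0.018 to 3.81), 3.88% in mouse 3 (4 of 103; 1.07 to 9.65) and 3.06% in mouse 4 (11 of 359; 1.54 to 5.42). Mice 1 and 4 in collagen were above every Matrigel culture of that day, mouse 2 was above its own Matrigel culture, and mouse 3 was below its own. Intervals and limits cover counting error only.

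Day 3 shares averaged 8.71% ± 6.78 (SD, n = 4) in collagen and 1.91% ± 1.86 (SD, n = 4) in Matrigel. That difference of 6.80 percentage points did not pass a two-sided exact permutation test over mice (p = 0.143, Benjamini-Hochberg adjusted over 3 days 0.429; the smallest p possible was 0.0286). Day 0 shares were 1.74% ± 1.4 and 0.926% ± 0.274 (SD, n = 4 each), and these did not pass either (exact permutation p = 0.371, adjusted 0.557). On day 5 collagen held 14.6%, 14.6% and 9.41% hybrid cells in mice 1 to 3, and Matrigel 9 of 51 cells in mouse 2 (17.6%; 8.40 to 30.9) and 0 of 37 in mouse 3, which allows up to 8.11% (exact upper bound 9.49%; exact permutation p = 0.8, with a smallest possible p of 0.1). Mouse 2 in Matrigel was thus as high as the collagen cultures of that day. Matrigel day 5 of mouse 1 had 12 filtered cells, none of them hybrid, and was left out of the test.

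**Figure D2:**
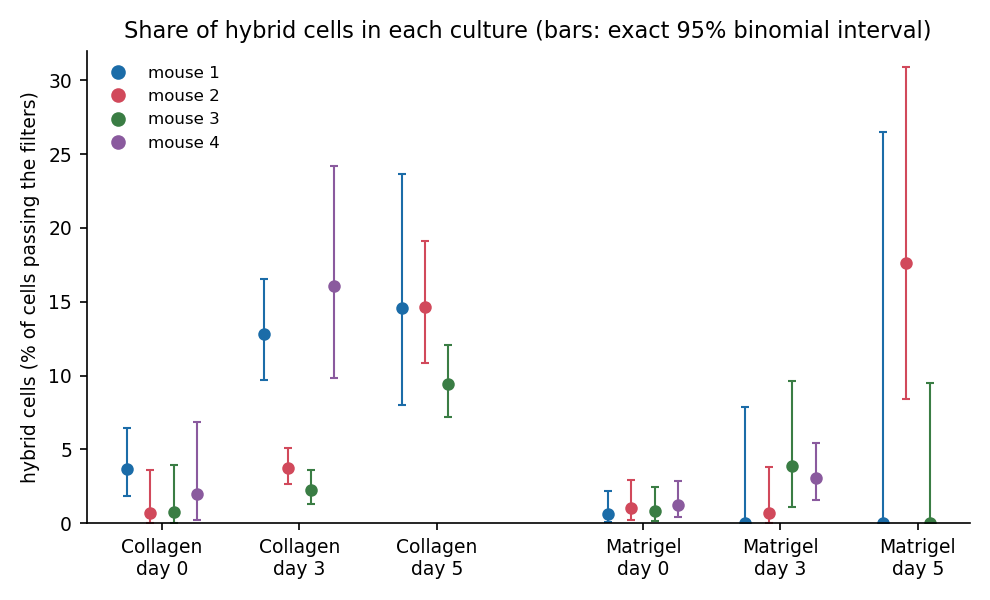
Hybrid cells as a percentage of filtered cells (y axis) in each culture, by gel and day (x axis), 1 point per mouse with its exact 95% binomial interval. Collagen on days 3 and 5 holds the shares above 9%, together with mouse 2 in Matrigel on day 5.

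Hybrid cells of mice 1 and 4 fell mostly in a single cluster each, not the same one, while mice 2 and 3 shared their largest cluster. The clustering made no correction for mouse, so this split is not shown to be particular to hybrid cells. Their median Vim ran from 9.36 per 10000 in mouse 4 to 12.2 in mouse 2, and median Krt14 from 8.72 in mouse 4 to 11.2 in mouse 2. After clustering of all cells, 40 of the 76 hybrid cells of mouse 1 fell in cluster 14 (led by Klk8, Arntl2 and Aebp2) and 23 of the 36 of mouse 4 in cluster 6 (led by Cd34, Gm567 and Inpp4b). Mouse 2 had 27 of 96 in cluster 1 (led by BC100530, Stfa3 and Cxcl3) and 23 in cluster 12, led by the basal keratin gene Krt5 and the contractile genes Acta2 and Tagln. Cluster 12 held 32 hybrid cells in all (11.1%), each under the limit on contractile genes. Mouse 3 had 21 of 81 in cluster 1 and 17 in cluster 11 (led by Igfbp5, Trf and the casein gene Csn1s1). No single cluster therefore stood for the hybrid cells: cluster 1, with 58 of 289 (20.1%), held the most. Vim-low Krt14 cells were spread differently: 371 of 2360 (15.7%) but 11 hybrid cells (3.81%) lay in cluster 2. Its leading genes include the squamous genes Krt6a, Krt16, Sbsn and Dmkn. The classes were not matched by mouse, gel or day here: 812 Vim-low cells and 28 hybrid cells came from day 0. The part of that mix in the difference was not tested. None of the hybrid cells lay in the macrophage-like or fibroblast-like clusters, and 5 (1.73%) lay in the cluster of 4T1 cells, a mouse mammary carcinoma line added to the pools.

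Krt5, the usual partner of Krt14 in basal cells, split the hybrid cells further. A UMI of Krt5 was seen in 13 of 76 hybrid cells of mouse 1 (17.1%), 40 of 96 of mouse 2 (41.7%), 24 of 81 of mouse 3 (29.6%) and 7 of 36 of mouse 4 (19.4%). By day the share was 17.9%, 20.1% and 41.8% on days 0, 3 and 5, and it was 26.3% in collagen and 47.4% in Matrigel. These are shares of cells pooled over mice and were not tested. They were taken at full depth, and the median depth of the pools rose from day to day (16177, 38122 and 55453.5 UMIs). The mix of mice also changed: mouse 4 gave no filtered cell of any class on day 5, and 13 of the 122 hybrid cells of that day came from mouse 1. The part of depth and of the mice in the shares by day and gel was not tested. In macrophage-like cells, as a background, the full-depth share was 1.56%. With every cell thinned to 5000 UMIs, Krt5 was seen in 13.8% of hybrid cells, 6.27% of Vim-low Krt14 cells and 1.04% of macrophage-like cells. Here too the classes were not matched by mouse, gel or day.

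To ask what else differs in hybrid cells, UMIs were summed over the hybrid cells of each mouse and over an equal number of Vim-low Krt14 cells drawn from the same mouse, gel and day, giving 76, 96, 81 and 36 cells a class in mice 1 to 4. The classes were split on Vim itself, so the comparison describes what moves with Vim among Krt14 cells. Levels are given in CPM (the UMIs of a gene per 1000000 UMIs of the sum, with TMM scaling between sums), and differences as log2 fold changes, hybrid over Vim-low. A gene was called at an adjusted p under 0.05 (edgeR quasi-likelihood test with mouse as block, Benjamini-Hochberg over all genes tested). Of 10778 genes tested, 292 were called (2.71%), 133 higher (1.23%) and 159 lower (1.48%) in hybrid cells. The same sign in all 4 mice was seen for 282 of them, which the calls from these same mice favour, so it is not separate support.

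Many mesenchymal partner genes were higher in hybrid cells, and most of those called encode secreted or matrix proteins. Of 20 listed mesenchymal partner genes 16 were tested, 10 were called higher (against 1.23% of all genes) and none lower, and their median difference was 1.26 against 0.003 over all genes tested. Fn1 (chr1:71585520-71653200, minus strand), which encodes fibronectin, stood at 548, 600, 886 and 727 CPM in the hybrid cells of mice 1 to 4 and at 179, 243, 353 and 389 CPM in their Vim-low cells. Every hybrid sum was above every Vim-low sum, with a log2 fold change of 1.29 (SE 0.111; edgeR adjusted p = 0.00136). Fstl1 (chr16:37776873-37836514, plus strand), a secreted glycoprotein of the Sparc family, stood at 49.3, 18.3, 19.5 and 87.1 CPM against 6.6, 1.47, 0.733 and 6.90. Again the classes did not overlap, and its log2 fold change of 3.48 (SE 0.239; edgeR adjusted p = 0.00136) was the largest among the named genes. Its Vim-low level in mouse 3, 0.733 CPM, stands for only a few UMIs in a sum of 4020741.

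Sparc, a collagen-binding matricellular protein, had 200, 306, 235 and 376 CPM in hybrid cells and 89.7, 157, 64.2 and 194 CPM in Vim-low cells, without overlap (log2 1.23, SE 0.147; edgeR adjusted p = 0.00611). Tnc, which encodes tenascin-C, had 57.1, 66.8, 22.5 and 136 CPM against 10.2, 10.1, 13.9 and 42.4 CPM (log2 1.92, SE 0.28; edgeR adjusted p = 0.0145). It was higher in hybrid cells of every mouse, but the Vim-low cells of mouse 4 were above the hybrid cells of mouse 3. Collagen genes called higher were Col6a1 of collagen VI (log2 1.84), Col1a2 of collagen I (log2 3.36) and, outside the list, Col5a3 of collagen V (log2 1.67). Col1a2 was at 4.99, 12.0, 1.98 and 40.8 CPM in hybrid cells and at 0.33, 0.84, 0.73 and 2.96 CPM in Vim-low cells, so mouse 4 carried most of its level. Each Vim-low value stands for only a few UMIs, in sums of 1003975 to 4722357 UMIs. The size of the Col1a2 fold change is therefore uncertain. Cdh2 (N-cadherin), Lgals1, Fbn1 and the collagen chaperone gene Serpinh1 were the other called members. Outside the list, Ptx3 (a secreted pentraxin, log2 2.46) and Igfbp4 (an insulin-like growth factor binding protein, log2 1.68) were also higher.

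Some transcription factors of epithelial-mesenchymal transition were higher in hybrid cells as well. Of 10 listed factors 6 reached the filter on low counts and 4 were called higher (against 1.23% of all genes), with a median of 1.03 over those 6. Zeb1 had 15.3, 11.3, 4.70 and 44.8 CPM in hybrid cells against 2.97, 3.36, 1.22 and 1.97 CPM in Vim-low cells (log2 2.38, SE 0.351; edgeR adjusted p = 0.0149). Zeb2 (chr2:44983632-45117395, minus strand) had 26.2, 41.4, 49.0 and 28.8 CPM against 7.26, 9.88, 16.4 and 4.93 (log2 1.88, SE 0.16; edgeR adjusted p = 0.00136). The classes did not overlap for either gene, and mouse 4 was the highest for Zeb1 and mouse 3 for Zeb2. The Zeb1 level of 1.97 CPM in Vim-low cells of mouse 4 stands for only a few UMIs in a sum of 1003975.

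Snai1 had 26.2, 18.1, 31.9 and 6.39 CPM in hybrid cells and 7.26, 10.3, 15.4 and 2.96 CPM in Vim-low cells (log2 1.17, SE 0.202; edgeR adjusted p = 0.0221). It was higher in hybrid cells of each mouse, although mouse 4 lay below the Vim-low cells of mice 1 to 3. Tcf4, a basic helix-loop-helix factor, was the other called member (log2 0.63). Snai2 (log2 0.89, edgeR adjusted p = 0.678) and Twist1 (log2 0.10, edgeR adjusted p = 0.93), which belong to the same list, were not called.

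**Figure D3:**
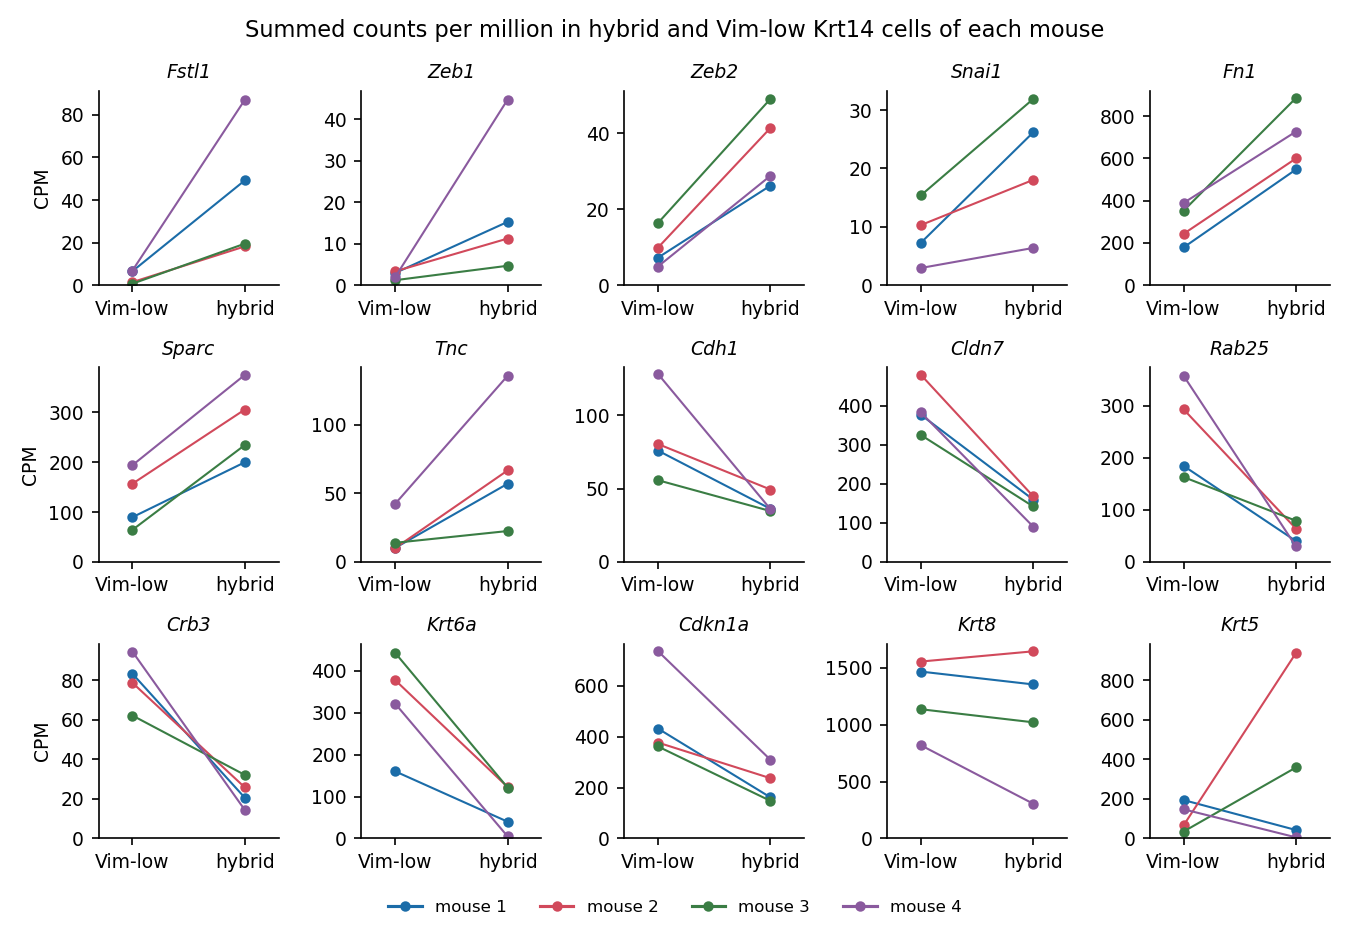
Summed CPM (y axis, starting at 0) of 15 genes in Vim-low and hybrid cells (x axis), with 1 line per mouse. Lines rise in all 4 mice for Fstl1, Zeb1, Zeb2, Snai1, Fn1, Sparc and Tnc and fall in all 4 for Cdh1, Cldn7, Rab25, Crb3, Krt6a and Cdkn1a, while Krt5 goes up in mice 2 and 3 and down in mice 1 and 4.

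Many epithelial adhesion and polarity genes were lower in hybrid cells. Of 19 listed junction genes all 19 were tested, 9 were called lower (against 1.48% of all genes) and none higher, with a median of -0.89. Cdh1 (chr8:106603351-106670246, plus strand) stood at 36.2, 49.3, 34.6 and 36.0 CPM in hybrid cells and at 75.9, 80.3, 55.7 and 128 CPM in Vim-low cells (log2 -1.0, SE 0.166; edgeR adjusted p = 0.0203). Cldn7 (chr11:69964779-69967885, plus strand), a tight junction claudin, stood at 160, 168, 142 and 90.3 CPM against 377, 480, 326 and 383 (log2 -1.48, SE 0.135; edgeR adjusted p = 0.00191). Neither gene overlapped between the classes, and neither was absent from hybrid cells: the hybrid level of Cdh1 was lowest in mouse 3 and that of Cldn7 in mouse 4. Cldn3, Cldn1, Ocln (occludin), Jup (plakoglobin), Marveld2 (tricellulin), Perp and Crb3 were the other called members.

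Crb3, which encodes a membrane protein of the apical Crumbs polarity complex, and Rab25, a small GTPase of epithelial membrane recycling, were among the genes with the clearest separation. Crb3 (chr17:57059105-57065918, plus strand) had 20.6, 25.8, 32.2 and 14.4 CPM in hybrid cells and 83.4, 78.9, 62.3 and 94.6 CPM in Vim-low cells (log2 -1.67, SE 0.211; edgeR adjusted p = 0.00779). Rab25 (chr3:88542029-88548300, minus strand) had 39.9, 63.7, 78.9 and 29.6 CPM against 184, 293, 163 and 358 (log2 -2.13, SE 0.295; edgeR adjusted p = 0.0123). In both genes mouse 4 showed the lowest hybrid level beside the highest Vim-low level. Nectin4, which encodes an adhesion molecule of the adherens junction, had 10.3, 13.4, 18.6 and 16 CPM against 56.4, 71.3, 53 and 52.2 (log2 -2.04, SE 0.177; edgeR adjusted p = 0.00136), and kept its call in all 19 alternative settings in which it was tested.

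Snai and Zeb factors are known to bind E-box sequences of the form CACCTG, whose reverse complement is CAGGTG, so that a search for both covers both strands. The 150 bases before the RefSeq start (GRCm38.p6) held at least 1 such match in 3483 of 32851 promoter windows (10.6%), at least 2 in 274 (0.834%) and at least 3 in 29 (0.088%). The Crb3 window had 3 matches and the Rab25 window 2. Both are shown because they had the largest differences of the 4 junction and polarity genes searched. They are printed 5′ to 3′ on the strand of the gene, with matches in capitals. The Crb3 stretch is chr17:57062051-57062150 (plus strand; inside the annotated gene, since a longer transcript starts upstream), and the Rab25 stretch is chr3:88548301-88548429 (minus strand, just upstream of the annotated gene).
Crb3: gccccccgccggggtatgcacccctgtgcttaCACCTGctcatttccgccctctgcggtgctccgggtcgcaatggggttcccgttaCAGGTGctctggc
Rab25: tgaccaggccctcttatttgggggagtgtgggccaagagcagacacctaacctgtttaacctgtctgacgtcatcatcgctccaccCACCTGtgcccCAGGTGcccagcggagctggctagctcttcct
Matches began 118, 63 and 7 bases before the start in Crb3 (the last is outside the printed stretch) and 64 and 53 bases before it in Rab25. A window at the other RefSeq start of Crb3, 30 bases downstream, held the same 3 matches. Cldn7 had 0 and 2 matches before its 2 RefSeq starts and Ocln 0 and 1, so matches were not particular to the pair shown. Cdh1 and Esrp2 were not searched. A match describes letters in a window. Binding was not measured, and the part of Snai and Zeb factors in the lower levels was not tested.

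Some regulators that hold the epithelial state were lower as well. All 11 listed epithelial gatekeepers were tested, 5 were called lower (against 1.48% of all genes) and none higher, with a median of -1.13. The called members were Cdh1, which the junction list also holds, the epithelial splicing factors Esrp1 (log2 -0.88) and Esrp2 (log2 -1.48), the ETS factor Ehf (log2 -1.16) and the grainyhead factor Grhl1. Esrp1 stood at 25.9, 30.1, 38.6 and 12.0 CPM in hybrid cells against 52.1, 51.7, 57.4 and 40.4 CPM in Vim-low cells. No hybrid sum reached a Vim-low sum, and the hybrid level was lowest in mouse 4.

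Several squamous differentiation genes were lower in hybrid cells. Of 17 listed squamous genes 8 passed the filter on low counts, which a gene can pass through the class where it is high. Of these 8, 5 were called lower (against 1.48% of all genes), and their median was -1.62. Krt6a (chr15:101689910-101694307, minus strand), a stress keratin, stood at 39.9, 122, 121 and 4.80 CPM in hybrid cells and at 160, 377, 442 and 321 CPM in Vim-low cells (log2 -2.26, SE 0.404; edgeR adjusted p = 0.0247). The classes did not overlap, and mouse 4 showed the widest gap. Sbsn (suprabasin, log2 -1.67), Sprr1a (a cornified envelope precursor, log2 -1.88), Tgm1 (the envelope cross-linking enzyme, log2 -1.88) and the desmoglein gene Dsg3 were the other called members. Krt16 (log2 -2.06) and Krt79 (log2 -2.16), keratin genes outside that list, were lower too. With cells matched by cluster, an alternative chosen after seeing the data, Krt6a stood at log2 -2.06, Krt16 at -1.86, Sbsn at -1.35 and Dmkn at -1.76, and all 4 were called.

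Of 15 tested p53 targets 3 were called lower (against 1.48% of all genes) and none higher, with a median of -0.60. Cdkn1a, which encodes the cell cycle inhibitor p21, had 162, 237, 148 and 309 CPM in hybrid cells against 432, 377, 362 and 736 CPM in Vim-low cells (log2 -1.15, SE 0.122; edgeR adjusted p = 0.00389), with no overlap. Gdf15, a secreted stress cytokine, and Btg2, an antiproliferative gene, were called at log2 -1.19 and -0.81. In the proliferation lists, 0 of 20 G2 and mitosis genes and 0 of 20 S phase genes were called by edgeR or DESeq2 (0 and 1 at an unadjusted p under 0.05), with medians of 0.05 and 0.01, and Mki67 stood at log2 0.02 (edgeR adjusted p = 0.986).

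Keratin genes of the simple and basal layers gave mixed calls. Krt8, a simple epithelial keratin gene, had 1354, 1645, 1021 and 305 CPM in hybrid cells and 1467, 1555, 1136 and 820 CPM in Vim-low cells, and was not called (log2 -0.37, SE 0.207; edgeR adjusted p = 0.453). Its partner Krt18 was not called either (log2 -0.19; edgeR adjusted p = 0.685), while Krt19 of luminal cells was lower (log2 -1.28; edgeR adjusted p = 0.00413). In the luminal list 2 of 13 tested genes were called lower (against 1.48% of all genes), Krt19 and the surface protein gene Ly6d (log2 -1.58). Krt19 kept its call in 13 of 20 alternative settings and Ly6d in 15 of 20.

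Among 14 tested basal genes, 1 was called higher (against 1.23% of all genes) and none lower, with a median of 0.00. The called gene was Dst (log2 1.16), which encodes a linker of keratin filaments to hemidesmosomes. Krt5 had 42.7, 940, 360 and 5.59 CPM in hybrid cells and 195, 66.0, 34.9 and 148 CPM in Vim-low cells. The mice thus disagreed in direction, with hybrid cells far above in mice 2 and 3 and below in mice 1 and 4 (log2 0.88, SE 1.3; edgeR adjusted p = 0.83). Trp63, the basal lineage factor, was not called (log2 -0.05; edgeR adjusted p = 0.974).

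Further genes with large differences belonged to no list above. Gjb2, which encodes the gap junction protein connexin 26, had 33.0, 76.5, 41.6 and 2.40 CPM in hybrid cells against 109, 269, 166 and 36.5 CPM in Vim-low cells (log2 -1.95, SE 0.166; edgeR adjusted p = 0.00136). It was lower in each mouse, and the Vim-low cells of mouse 4 were the low ones of their class. Prlr, the prolactin receptor gene, was lower at log2 -1.95 and listed at 0 CPM in the hybrid cells of mouse 4, and Msln (mesothelin), Gpx2 (a glutathione peroxidase), Dmkn (dermokine), Cwh43 and Bnipl lay between log2 -2.10 and -1.81. S100a14, an S100 calcium-binding protein gene of epithelia, had 58.6, 103, 93.0 and 59.1 CPM against 249.3, 229, 182 and 451 CPM, without overlap (log2 -1.70, SE 0.268; edgeR adjusted p = 0.0172). S100a11 (log2 -0.35) was the other called member of 9 tested S100 genes (against 1.48% of all genes called lower).

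On the higher side stood G0s2, an inhibitor of triglyceride lipolysis (log2 2.24), Gnb4, a G protein beta subunit (log2 2.23), Ppic, a cyclophilin (log2 1.94), Gpx8, an endoplasmic reticulum peroxidase (log2 1.85), and Pmp22, a tetraspan membrane protein (log2 1.57). Pmp22 had 31.8, 24.9, 62.6 and 21.6 CPM in hybrid cells against 9.56, 10.5, 17.3 and 9.86 CPM, with no overlap. Of 16 oxidative stress genes, Fth1 (ferritin heavy chain) was called higher, at 8222, 7209, 8523 and 3970 CPM against 4983, 4825, 6313 and 1845 CPM (log2 0.71), and Slc7a11, the cystine transporter gene, lower (log2 -0.79). Both moved the same way in every mouse. Of 12 YAP targets F3 (tissue factor, log2 -0.97) was lower and Ctgf, a matricellular protein gene, higher (log2 0.56). Jund (log2 -0.41) of 14 AP-1 and immediate early genes and Hspa1b (log2 -0.67) of 12 heat shock genes were lower. Over all genes 2.71% were called, and nothing further is read from the counts in these lists.

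Groups tied to movement, matrix contact and signalling gave few calls. Of 25 actin and motility genes 1 was called higher (Tmsb4x, thymosin beta 4, log2 0.78), of 20 matrix proteases and inhibitors 1 (Mmp3, stromelysin, log2 1.21), and of 14 basement membrane genes 0 by edgeR or DESeq2 (5 at an unadjusted p under 0.05). Itgb6, an epithelial integrin subunit, was the 1 member of 16 matrix receptors called, and was lower (log2 -1.61). Of 18 TGF-beta targets 2 were called higher: Ctgf again and Id3 (log2 0.91), an inhibitor of helix-loop-helix factors. The immunoproteasome genes Psmb8 (log2 0.47) and Psmb10 (log2 0.69) were called of 11 antigen presentation genes, Bst2 (log2 0.55) of 17 interferon response genes, and P4ha1 (log2 0.92), a collagen prolyl hydroxylase, of 20 hypoxia and glycolysis genes. At most 2 members of each of these lists were called, against 2.71% of all genes, and nothing further is read from such counts.

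**Figure D4:**
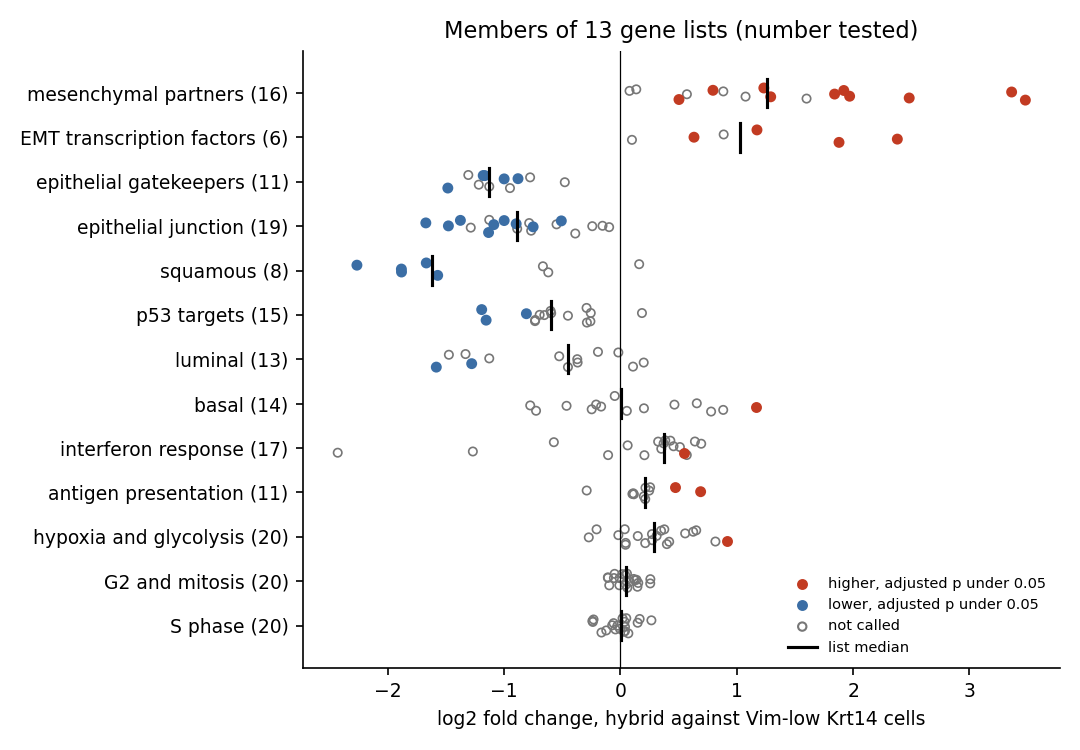
Log2 fold change of hybrid over Vim-low Krt14 cells (x axis) for each tested member of 13 gene lists (y axis, number tested in brackets); filled points were called, red higher and blue lower, and a bar marks the list median. Mesenchymal partners and transition factors lie to the right of 0, gatekeepers, junction genes and squamous genes to the left, and the cell cycle lists around 0.

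These calls rest on pairing hybrid and Vim-low cells by mouse: with no block for the mouse, 2 genes were called, and leaving out mouse 1, 2, 3 or 4 left 133, 61, 155 or 163 calls. Another random draw of the Vim-low cells gave 387 calls, of which 234 were shared with the 292, so single calls depend on the draw. Thinning each cell to 5000 UMIs, with cells classed again on the thinned counts, left 48 calls among the 5472 genes then tested. Matching cells within clusters left 182, and removing the highest doublet scores left 308, of which 179 were shared with the 292. In Matrigel alone (2, 13, 7 and 16 hybrid cells in mice 1 to 4) 3 genes were called, and Fn1 turned to log2 -0.55 there, so the account above is mostly one of collagen. Several single calls were lost in most alternative settings: Slc7a11 kept its call in 4 of 18 settings in which it was tested, Sprr1a in 5 of 14, Id3 and Btg2 in 6 of 20, Bst2, Ctgf and Jund in 7 of 20 and Tcf4 in 8 of 20.

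Technical measures of hybrid and Vim-low cells were compared by mouse. Median UMIs per cell were higher in hybrid cells of 3 of 4 mice, by 4662 on average (SD 3665, n = 4; exact paired permutation p = 0.25), and the mitochondrial share was higher in 4 of 4, by 0.232 percentage points (SD 0.165, n = 4; exact paired permutation p = 0.125, the smallest p that 4 pairs allow). Summed markers of other cells were compared too. The 13 macrophage markers summed to 49.6 to 65.6 CPM in hybrid cells and 54.8 to 117 in Vim-low cells, with Adgre1, C1qb and C1qc at 0 in hybrid cells. The 10 fibroblast markers summed to 14.2 to 60.6 CPM in hybrid cells against 4.57 to 6.22, moving with the matrix genes; Col3a1, Dpt and Pi16 were at 0 in hybrid cells, and the fibroblast list shares Col1a2 with the mesenchymal list. Their part in the matrix result was not tested. Without cells in clusters of other cell types 365 genes were called. Only 5 hybrid cells of the 4T1 cluster and 1 macrophage-like Vim-low cell lay in such clusters. Neither class held a fibroblast-like cell, so that setting cannot address the fibroblast markers.

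Intermediate Vim levels allow hybrid cells to be placed on a scale. In collagen on days 3 and 5, sums over all cells of a class, here in CPM without TMM scaling, gave Rab25 levels of 218, 304, 228 and 287 CPM in Vim-low cells of mice 1 to 4, of 110, 173, 137 and 105 CPM in Krt14 cells with Vim from 1 to 5, and of 40.0, 53.3, 75.0 and 9.03 CPM in hybrid cells. Each mouse stepped down from class to class. Cldn7, Crb3 and, with mouse 3 as the exception at its first step, Cdh1 were ordered likewise. Fn1 stepped up in each mouse, from 198, 262, 352 and 569 CPM through 456, 340, 787 and 585 CPM to 525, 638, 992 and 964 CPM in hybrid cells. These levels follow the Vim cut itself and carry no test. Days were pooled without matching here, and the classes differ in their mix of days: mouse 3 had 17 hybrid cells from day 3 and 56 from day 5, against 336 and 199 Vim-low cells.

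**Figure D5:**
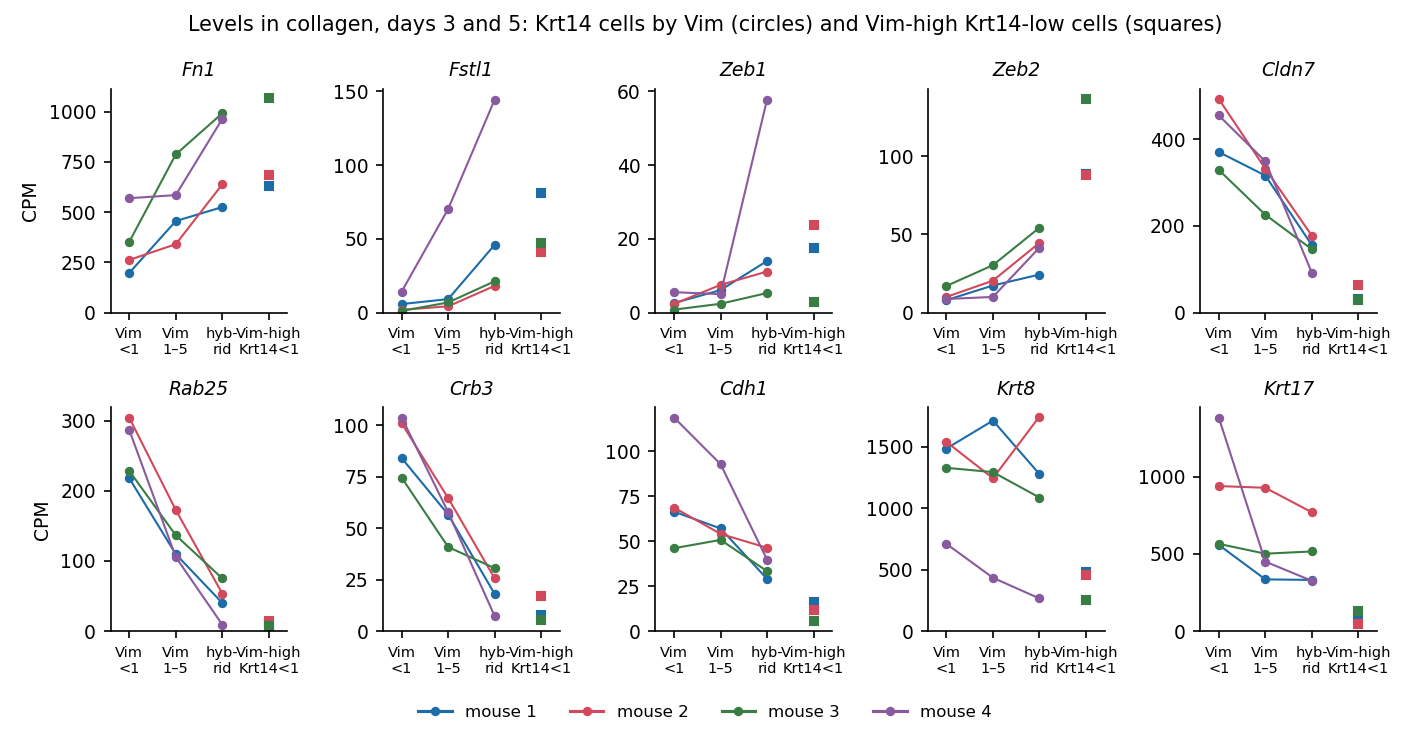
Summed CPM (y axis, starting at 0) of 10 genes in collagen on days 3 and 5, 1 colour per mouse. Circles joined by lines are Krt14 cells with Vim under 1, from 1 to 5, and of at least 5 (hybrid) per 10000; squares are Vim-high cells with Krt14 under 1, shown for mice 1 to 3. Rab25, Crb3 and Cldn7 step down to the hybrid cells and are lower still in the Vim-high Krt14-low cells.

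Set against the other side, Vim-high cells with Krt14 under 1 per 10000, hybrid cells had higher levels of junction and basal genes. This class passed the same filters and held 427 cells, and matched numbers were 76, 70, 81 and 8 cells a class in mice 1 to 4. The classes were split on Krt14 itself, so the comparison describes what moves with this basal keratin gene among Vim-high cells. Of 10804 genes tested 212 were called (1.96%), 131 higher (1.21%) and 81 lower (0.75%) in hybrid cells (edgeR, mouse as block). Of 18 tested junction genes 9 were called higher and none lower, with a median of 1.34 against -0.008 over all genes. Of 13 tested basal genes 8 were called higher and none lower, with a median of 1.54.

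Krt5 had 42.3, 560, 356 and 3.85 CPM in hybrid cells of mice 1 to 4 and 4.21, 5.84, 4.75 and 0 CPM in Vim-high Krt14-low cells (log2 5.65, SE 0.528; edgeR adjusted p = 0.00386). It was higher in each hybrid sum, though mouse 4, with 8 cells, lay at the level of the other class. Cldn7 had 158, 159, 140 and 162 CPM against 30.4, 58.4, 29.2 and 27.1 (log2 2.08, SE 0.197; edgeR adjusted p = 0.00386). Rab25 had 39.5, 55.3, 78.1 and 46.2 CPM against 7.01, 14, 6.26 and 5.41 (log2 2.69, SE 0.277; edgeR adjusted p = 0.00519). Neither overlapped. Hybrid levels of both genes thus lay between those of Vim-low Krt14 and of Vim-high Krt14-low cells.

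Further basal genes higher in hybrid cells included Col17a1 (collagen XVII of hemidesmosomes, log2 3.24), Itgb4 (integrin beta 4, log2 1.54) and Trp63 (log2 1.53; edgeR adjusted p = 0.043), beside Krt17, Lama3 and Sox10. Krt6a (log2 5.59) and Sfn (14-3-3 sigma, log2 2.07) of the squamous list, Serpinb5 (maspin, log2 3.11), the aldehyde dehydrogenase gene Aldh1a3 (log2 2.57) and Mmp10 (log2 2.97) were higher as well. Hybrid cells thus had less Krt6a than Vim-low Krt14 cells and more than Vim-high Krt14-low cells.

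Mesenchymal genes gave few calls against this class. Of 17 tested mesenchymal partners 0 were called by edgeR (7 at an unadjusted p under 0.05, and 1 by DESeq2), with a median of -0.40; Fn1 had 542, 590, 876 and 717 CPM against 604, 524, 1088 and 338 (log2 0.16, SE 0.232; edgeR adjusted p = 0.854). Zeb1 stood at log2 -0.01 (edgeR adjusted p = 1.0), with 15.1, 14.1, 4.65 and 30.8 CPM in hybrid cells against 20.8, 19.5, 2.38 and 2.71. Fn1 and Zeb1 overlapped widely between the classes; a p that misses the threshold does not show equal levels. Of 9 tested transition factors 1 was called, Zeb2, at 25.9, 50.4, 48.4 and 7.71 CPM in hybrid cells against 95.8, 86.5, 136 and 119 CPM (log2 -1.52, SE 0.276; edgeR adjusted p = 0.0379).

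Macrophage genes accompany that lower side. The Vim-high Krt14-low class held 30 macrophage-like, 10 fibroblast-like and 35 cells of the 4T1 cluster among its 427, its 13 macrophage markers summed to 109 to 2162 CPM against 60.6 to 74.9 in hybrid cells, and Tyrobp (log2 -7.38) and Lyz2 (log2 -7.36) were among the lowest genes. Zeb2 is held by 93.2% of macrophage-like cells, and the part of such cells in its difference was not tested. The part of these other cells in the higher junction and basal genes was not tested either. Csf1 (log2 -1.63), the macrophage growth factor, and Procr (log2 -2.35), a protein C receptor, were also lower in hybrid cells. The count of calls moved to 535 without clusters of other cells, to 118 without cells with immune markers (93 higher and 25 lower), to 96 without the highest doublet scores and to 39 without the mouse block. Without mouse 1, 2, 3 or 4 it was 40, 73, 56 or 539, and without mouse 3 lower calls outnumbered higher ones (38 against 18).

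Within single days, only collagen on days 3 and 5 had at least 10 hybrid cells in at least 2 mice. On day 3 (4 mice; 50, 38, 17 and 18 hybrid cells), 425 of 11797 genes were called between hybrid and all Vim-low Krt14 cells of the same culture (3.6%), 170 higher (1.44%) and 255 lower (2.16%). On day 5 (mice 1 to 3; 13, 44 and 56 hybrid cells) 112 were called (0.949%), 42 higher (0.356%) and 70 lower (0.593%) (edgeR, culture as block). These contrasts share cells with the comparison by mouse and are not separate support for it.

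Junction genes were called lower for 13 of 19 members on day 3 and for 3 of 19 on day 5, and gatekeepers for 7 and 0 of 11, although all 11 had an unadjusted p under 0.05 on day 5 (edgeR; 0 called by DESeq2). Rab25 had 36.7, 48.6, 68.8 and 8.33 CPM in day 3 hybrid cells against 232, 321, 280 and 275 CPM (log2 -2.79, SE 0.261; edgeR adjusted p = 0.000226). On day 5 it had 58.8, 59.3 and 73.7 CPM in hybrid cells of mice 1 to 3 against 195, 281 and 184 CPM (log2 -1.76, SE 0.27; edgeR adjusted p = 0.00971). Hybrid cells lay below Vim-low cells of every culture on both days. Cdh1 was called on day 3 (log2 -1.21) and not on day 5 (log2 -0.69; edgeR adjusted p = 0.0947).

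Mesenchymal partners were called higher for 9 of 17 tested members on day 3 and 5 of 17 on day 5, and transition factors for 4 and 2 of 9. Fn1 had 460, 578, 558 and 890 CPM in day 3 hybrid cells against 201, 256, 325 and 546 CPM in Vim-low cells (log2 0.97, SE 0.113; edgeR adjusted p = 0.000703). Its day 5 levels were 827, 713 and 1036 CPM against 232, 292 and 394 CPM (log2 1.49, SE 0.131; edgeR adjusted p = 0.000243). Zeb2 was called on both days (log2 2.18 and 1.71), and Zeb1 on day 3 (log2 2.64) but not on day 5 (log2 2.51; edgeR adjusted p = 0.0796). On day 3, 4 of 19 interferon response genes (Isg15, Irf7, Zbp1 and Bst2) and 4 of 12 antigen presentation genes (H2-K1, H2-D1, Psmb8 and Psmb10) were called higher, against 0 of each by edgeR or DESeq2 on day 5 (5 and 4 at an unadjusted p under 0.05).

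Whether the class difference itself changed from day 3 to day 5 was tested in the same fit. No gene passed (0 of 11797, 0.0%; 435 at an unadjusted p under 0.05; DESeq2 called 2), so calls on 1 day and not on the other do not show a difference between days. Leaving out mouse 2, 3 or 4 left 134, 220 or 279 calls on day 3, and leaving out mouse 2 left 31 on day 5. Without the block the counts were 63 on day 3 and 0 on day 5 (569 at an unadjusted p under 0.05), and without the highest doublet scores they were 348 and 45.

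Hybrid cells of day 5 were finally set against hybrid cells of day 3 in collagen, with 3 and 4 mice. Of 9349 genes tested 21 were called (0.225%), 14 higher (0.15%) and 7 lower (0.0749%) on day 5 (edgeR, no block). Mice 1 to 3 gave cells on both days, and with the mouse as block 220 were called, 80 higher and 140 lower, so the larger side turned. Histone genes, whose transcripts peak in S phase, stood out on the lower side: Hist1h1b had 6.19, 20.6 and 24.7 CPM on day 5 against 111, 167, 137 and 201 CPM on day 3 (log2 -3.02, SE 0.354; edgeR adjusted p = 0.0111). Hist1h1e (log2 -2.11) and Hist1h2ap (log2 -1.53) were lower too. Of 20 listed S phase genes 0 were called by edgeR or DESeq2 (0 at an unadjusted p under 0.05). With 0.225% of all genes called, a count of 0 in a list of this size says little. Higher on day 5 were Tuba1a, an alpha tubulin gene, at 324, 248 and 286 CPM against 82.5, 102, 113 and 56.9 CPM (log2 1.68, SE 0.219; edgeR adjusted p = 0.0195), and Cdk2ap1, a CDK2-binding protein gene, at 87.9, 109 and 97.0 CPM against 13.8, 19.4, 20.4 and 15.1 CPM (log2 2.54, SE 0.205; edgeR adjusted p = 0.00165).

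None of these 3 genes overlapped between days. Wfdc18, a secreted whey acidic protein family gene, showed the largest named difference, at 119, 449 and 118 CPM on day 5 against 10.3, 0.587, 16.7 and 10.1 CPM on day 3 (log2 4.84, SE 0.705; edgeR adjusted p = 0.0286). Of the mesenchymal, transition factor, gatekeeper and junction lists 0 members were called between the days by edgeR or DESeq2 (1, 1, 2 and 2 at an unadjusted p under 0.05). Only 0.225% of all genes were called, so these counts of 0 do not show that the lists stayed level. With the mouse as block 1 mesenchymal partner was called higher and 2 lower, and 0 members of the other 3 lists, against 220 of all 9349 genes. Without the block, the count of calls with mouse 1, 2 or 3 left out was 3, 3 or 0 (683 at an unadjusted p under 0.05 without mouse 3). With at least 20 cells a sum it was 0 (1003 at an unadjusted p under 0.05), and without the highest doublet scores 4. Day 3 and day 5 cells come from separate pools and batches, so these differences cannot be told apart from batch.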

How the data were processed

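The deposited table of UMI counts for each gene in each cell, and the deposited mitochondrial fraction of a cell, were made by the authors from 10x Genomics 3′ v2 libraries with MULTI-seq barcodes, per the labels' protocols. Cell Ranger 3.0.2, Scanpy 1.4.4 and the mouse build GRCm38 are named in the submitters' processing notes, with no gene annotation release. Mouse, gel and day of each cell came from the deposited annotation, and coordinates came from GENCODE vM21, which held 20574 of the 20605 gene identifiers.

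Cells were filtered and classed in Python 3.11.15 by the thresholds stated with the results, and clustered with Scanpy 1.11.5 (2000 variable genes, 30 components, 15 neighbours, Leiden resolution 1). Raw counts of a class were summed per mouse, or per culture with at least 10 cells of both classes, and tested with edgeR 4.0.16 (R 4.3.3; TMM, filterByExpr, quasi-likelihood test, Benjamini-Hochberg over all genes tested, called under 0.05). The 6 genes of the rule stayed in the totals and out of the tests. Both classes come from the same animals, so mouse or culture was a block; same-mouse sums deviated together (correlations of 0.335 to 0.623 against a median of -0.143 between mice). Replicate mice differed by more than counting noise (chi-square 9.18 to 14.7 times its degrees of freedom, 6 pairs). The mouse is the replicate throughout. Summed depth was 1003975 to 5366876 UMIs a sum in the comparison by mouse. The main edgeR fits were tested on simulated data, except for the change of the class difference between days. For hybrid cells between days the simulated spread was below the fitted one (common dispersion 0.0647), so that run says little about errors in the real fit. Alternative settings were not.

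Named genes were the 12 highest and 12 lowest called genes with at least 20 CPM in 1 class and the same sign in every mouse (leaving out genes of the rule and predicted, mitochondrial and ribosomal protein genes; 8 and 8 between days), up to 4 members of each list with a called member, and 10 state markers whether called or not. Called list members outside that rule are named without values, chosen after their values were seen. The members, lists and alternatives were chosen with earlier results of these data known. Alternatives were DESeq2 1.42.0, other normalization, filters, draws, thresholds and thinning, and leaving out each mouse; those by doublet score, nearest depth, cluster and the change between days were added after seeing the data. Matrigel cultures, day 0 and the gel effect within hybrid cells had too few hybrid cells for the planned tests and were not fitted.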

Additional observations from a re-analysis of the deposited data

Results flagged for a closer look

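In 3 of 69 groups of 4 mice tested, 1 mouse stood apart from the others by Dixon's criterion, which chance gives in about 1 in 20 groups. Cdh1 in hybrid cells stood at 49.3 CPM in mouse 2, above 34.6 to 36.2 CPM in the other mice. Mmp3 in hybrid cells stood at 152 CPM in mouse 1, against 12.8 to 25.7 CPM elsewhere, and the Vim-low cells of mouse 1 were the highest of their class too, at 56.1 CPM. Ctgf in hybrid cells stood at 97.5 CPM in mouse 2.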

How the results depend on the processing

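Depth and cell numbers limit these results: hybrid sums of 36 cells in mouse 4 and of 2 to 16 cells in Matrigel leave low genes untested, and the cause of each change below was not tested except where fewer cells, mice or genes enter. For hybrid against Vim-low cells (292 calls), the count was 736 with no filter on low counts, 2 with no replicate block (the mouse), 659 with no matching of cell numbers, 182 when matched by cluster, 48 thinned to 5000 UMIs, 3 in Matrigel only and 61 to 163 without a mouse; all 65 named calls kept their direction with DESeq2, RLE and no filter. Against Vim-high Krt14-low cells (212) it was 705 with no filter, 39 with no replicate block, 535 without clusters of other cells, 118 without immune-marked cells, 96 without top doublet scores and 40 to 539 without a mouse. In collagen, day 3 (425) gave 200 by DESeq2, 959 with no filter, 63 with no block, 132 with at least 20 cells and 134 to 380 without a mouse; day 5 (112) gave 52, 567, 0, 33 and 31 to 130 in the same order, and 45 without top doublet scores. DESeq2 moved the day 3 median over all genes from -0.01 to 0.13. The change between days (0) gave 2 by DESeq2, 111 with no filter, 3 without top doublet scores and 0 to 5 without a mouse. Day 5 against day 3 hybrid cells (21) gave 37 by DESeq2, 63 with no filter, 220 with the mouse as replicate block, 0 with at least 20 cells, 4 without top doublet scores and 0 to 18 without a mouse. Share, depth and mitochondrial results kept their sign in every setting run, the replicate block included. All p stayed above the threshold (day 3 shares paired by mouse: exact permutation p = 0.25), but many settings could not pass it. The smallest p that the exact permutation test allowed was 0.125 for day 3 shares paired by mouse and 0.1 without a mouse. It was at least 0.1 for day 5 shares, and 0.125 or 0.25 for depth and mitochondrial share. Directions turned in hybrid against Vim-low cells as follows. Matrigel only gave Fn1 -0.55, Tmsb4x -0.75, Id3 -0.84, Ctgf -0.085, Bst2 -0.44, Psmb8 -0.58, Hspa1b 0.39 and Mki67 -0.25. Cluster matching gave Bst2 -0.26, Krt5 -0.50, Krt18 0.063, Snai2 -0.34 and Mki67 -0.38; thinning gave Id3 -0.011, Krt18 0.018 and Mki67 -0.018. Another draw gave Krt18 0.14 and Mki67 -0.15; no matching gave Trp63 0.13 and Mki67 -0.13; UMI matching gave Mki67 -0.16. A Vim threshold of 10 gave Krt5 -0.24, Twist1 -0.28 and Mki67 -0.30, one of 3 gave Twist1 -0.007, and collagen only gave Krt5 -0.076, Krt18 0.034 and Twist1 -0.061. Without other-cell clusters Twist1 was -0.024, without immune-marked cells Trp63 was 0.086 and Twist1 -0.035, and without top doublet scores they were 0.079 and -0.37. Leaving out a mouse gave Krt5 -0.65 to 2.18, Krt18 -0.36 to 0.055, Trp63 -0.37 to 0.24, Snai2 -0.003 to 1.96, Twist1 -0.40 to 0.44 and Mki67 -0.17 to 0.12. Against Vim-high Krt14-low cells, Zeb1 was 0.46 by DESeq2, 0.11 with no matching and 0.026 without top doublet scores, Fn1 was -0.077 without other-cell clusters, and leaving out a mouse gave Zeb1 -0.22 to 0.34, Fn1 -0.10 to 0.34 and Mki67 -0.82 to 0.10. The planned removal of caller-marked doublets was not run, since the caller marked almost no cell.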
